A study of Homo sapiens with 6 samples.

Results

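The 9 genes described here encode kinases that sense salt and cell volume, and subunits of the sodium pump: WNK1, WNK3, WNK4, STK39, OXSR1, SGK1, SGK3, ATP1B1 and ATP1B3. They were chosen by name for these functions, with earlier results of these data known, and all 9 were found among the 19907 distinct gene names of the count tables. Total RNA was sequenced from U2OS cells, a human osteosarcoma line, that carried a stable GFP-DCP1A transgene (DCP1A takes part in mRNA decapping) and were grown under G418 selection. The 3 groups of 2 libraries each were labelled rescue (300 mM sodium for 4 h, then isotonic medium for 4 h), hypertonic (300 mM sodium for 4 h) and isotonic (150 mM sodium, with a mock supplement of the same volume). All groups carried the transgene. Rescue took 4 h more than the hypertonic treatment alone and has no isotonic group of matching duration, so rescue and time cannot be told apart. Separate cultures are not stated for the 2 libraries of a group, and p-values therefore measure only the spread between these libraries.

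A cell placed in concentrated medium loses water and shrinks, and it then takes up ions to restore its volume. WNK kinases, named for a catalytic lysine that is not at its usual place, respond to chloride and crowding and phosphorylate the kinases SPAK (gene STK39) and OSR1 (gene OXSR1), which in turn switch on sodium-coupled chloride import and switch off potassium-coupled chloride export. SGK kinases act in parallel on ion channels and transporters, and the sodium pump exports the sodium that has entered. SGK1 itself is known as a gene whose transcript rises when cells shrink.

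The promoter windows of the 3 members with the highest ratio of hypertonic 1 to isotonic 1 are shown because the data below turn on these genes. Each runs from 250 bases before to 50 bases after an annotated start, 5′ to 3′ on the strand of the gene, and is taken from RefSeq (GRCh38.p14). SGK1 has 3 annotated starts, and the counts, which are per gene, do not tell them apart. Capitals mark matches, on either strand, to TGGAAA (the core of the site bound by the osmotic factor NFAT5), TATAAA (the TATA box), CCAAT (the CCAAT box) and TGACG (the shared core of the cyclic AMP response element). A match on the opposite strand is printed as its reverse complement.
SGK1 (chr6:134174817-134175116, minus strand): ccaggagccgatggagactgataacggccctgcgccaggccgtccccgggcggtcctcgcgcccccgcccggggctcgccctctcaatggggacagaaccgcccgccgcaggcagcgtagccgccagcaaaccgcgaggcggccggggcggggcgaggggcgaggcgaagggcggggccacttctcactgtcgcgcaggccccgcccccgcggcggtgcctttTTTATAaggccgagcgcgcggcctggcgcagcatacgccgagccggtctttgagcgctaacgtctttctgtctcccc
SGK1 (chr6:134177812-134178111, minus strand): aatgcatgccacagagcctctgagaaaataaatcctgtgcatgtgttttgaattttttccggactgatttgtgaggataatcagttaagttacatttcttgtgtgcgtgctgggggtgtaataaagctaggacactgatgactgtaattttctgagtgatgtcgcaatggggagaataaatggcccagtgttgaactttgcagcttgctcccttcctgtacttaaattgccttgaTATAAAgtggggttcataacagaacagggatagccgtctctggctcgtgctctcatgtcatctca
SGK1 (chr6:134318063-134318362, minus strand): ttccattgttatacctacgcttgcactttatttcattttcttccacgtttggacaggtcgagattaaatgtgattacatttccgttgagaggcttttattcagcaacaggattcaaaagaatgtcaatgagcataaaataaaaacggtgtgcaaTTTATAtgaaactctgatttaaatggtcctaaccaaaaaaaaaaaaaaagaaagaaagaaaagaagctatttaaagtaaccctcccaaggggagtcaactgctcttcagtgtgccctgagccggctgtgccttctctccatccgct
ATP1B1 (chr1:169106440-169106739, plus strand): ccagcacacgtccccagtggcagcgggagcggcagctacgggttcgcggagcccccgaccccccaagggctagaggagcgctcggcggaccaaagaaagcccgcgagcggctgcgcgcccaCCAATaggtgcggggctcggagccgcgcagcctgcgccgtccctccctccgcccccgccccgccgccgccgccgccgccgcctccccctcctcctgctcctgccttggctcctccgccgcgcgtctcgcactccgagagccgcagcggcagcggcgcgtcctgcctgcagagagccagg
ATP1B3 (chr3:141876393-141876692, plus strand): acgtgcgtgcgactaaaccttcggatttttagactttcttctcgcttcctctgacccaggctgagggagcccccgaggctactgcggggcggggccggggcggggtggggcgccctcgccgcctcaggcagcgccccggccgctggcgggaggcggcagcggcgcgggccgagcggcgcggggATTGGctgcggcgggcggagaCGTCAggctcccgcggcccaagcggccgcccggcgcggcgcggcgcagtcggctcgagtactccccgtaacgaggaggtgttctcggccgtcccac

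Each of the 3 SGK1 windows held 1 TATAAA. In the order listed it began 27, 15 and 96 bases before the start, on the minus, plus and minus strand of the window. TATAAA was present in 11.5% of the 35116 windows in the table. The ATP1B1 and ATP1B3 windows each held 1 CCAAT, a motif of 34.6% of all windows, and the ATP1B3 window held 1 TGACG (24.6% of all windows). None of these 5 windows held TGGAAA, which 20.7% of all windows held, and that says only that these letters are not in these bases. Of the 9 members 7 had a window in the table. WNK4 and SGK3 had none, and of the windows of the other members that of WNK1 held TGGAAA, that of OXSR1 the full element TGACGTCA (1.85% of all windows) with its 2 overlapping copies of TGACG, and those of WNK3 and STK39 none of the motifs.

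Values are given as CPM, the deposited counts scaled by the library total. Totals ranged from 90196278 to 105991428 counts, and the smallest count of any member, WNK4 in the library labelled isotonic 2, was 361, with an exact 95% Poisson interval of 325 to 400 that covers counting error only. The libraries labelled hypertonic and isotonic did not group by their labels. Across 17388 genes with at least 100 summed counts, the SD of the log2 ratio was 0.952 between the hypertonic libraries and 0.962 between the isotonic ones, against 0.166 between the rescue libraries, 0.184 between hypertonic 2 and isotonic 1, and 0.195 between hypertonic 1 and isotonic 2. SLC38A2, an amino acid transporter known to rise in hypertonic medium, was split in the same way, with 2697 CPM in hypertonic 1 and 344 CPM in hypertonic 2, against 341 CPM in isotonic 1 and 2727 CPM in isotonic 2. Whether labels were exchanged between libraries was not tested, so each direction of hypertonic against isotonic holds only for the labels as given. Labels were kept as deposited, every member is given per library, and the comparisons are also given for each library number alone. Of the 9 bone lineage markers, COL1A1 and SPARC were at 686.5 CPM or more in every library and RUNX2 was at 62.8 and 68.6 CPM in rescue, 17.2 and 76.1 CPM in hypertonic and 77.7 and 17.6 CPM in isotonic libraries. The other 6 (SPP1, ALPL, BGLAP, SP7, COL1A2 and IBSP) were low, from at most 4.26 CPM for SPP1 to no count for IBSP in hypertonic 1 and isotonic 2. Rescue libraries stood apart in that 690 and 699 genes had no count, against 1248 and 1653 in hypertonic and 1627 and 1270 in isotonic libraries, and the summed level of 386 olfactory receptor genes was 116 and 125 CPM, against 41.0 to 58.0 CPM in hypertonic and 41.4 to 61.1 CPM in isotonic libraries. The 7 epithelial markers summed to 39.8 and 42.4 CPM in rescue, 17.2 to 26.4 CPM in hypertonic and 17.4 to 24.5 CPM in isotonic libraries. The 5 endothelial markers summed to 32.8 and 33.4 CPM in rescue, 8.14 to 28.6 CPM in hypertonic and 8.49 to 29.3 CPM in isotonic libraries. Most of the endothelial spread within hypertonic and isotonic libraries was PECAM1, at 14.3 and 12.8 CPM in rescue, 23.9 and 3.48 CPM in hypertonic and 3.59 and 24.7 CPM in isotonic libraries. The 6 leukocyte markers, of which CD3E had no count in the hypertonic and isotonic libraries, summed to 3.49 and 4.19 CPM in rescue, 0.734 to 4.40 CPM in hypertonic and 0.636 to 4.11 CPM in isotonic libraries. In bulk RNA, fewer cells of a type and less RNA per cell cannot be told apart. The part of these differences in the results below was not tested.

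**Figure D1:**
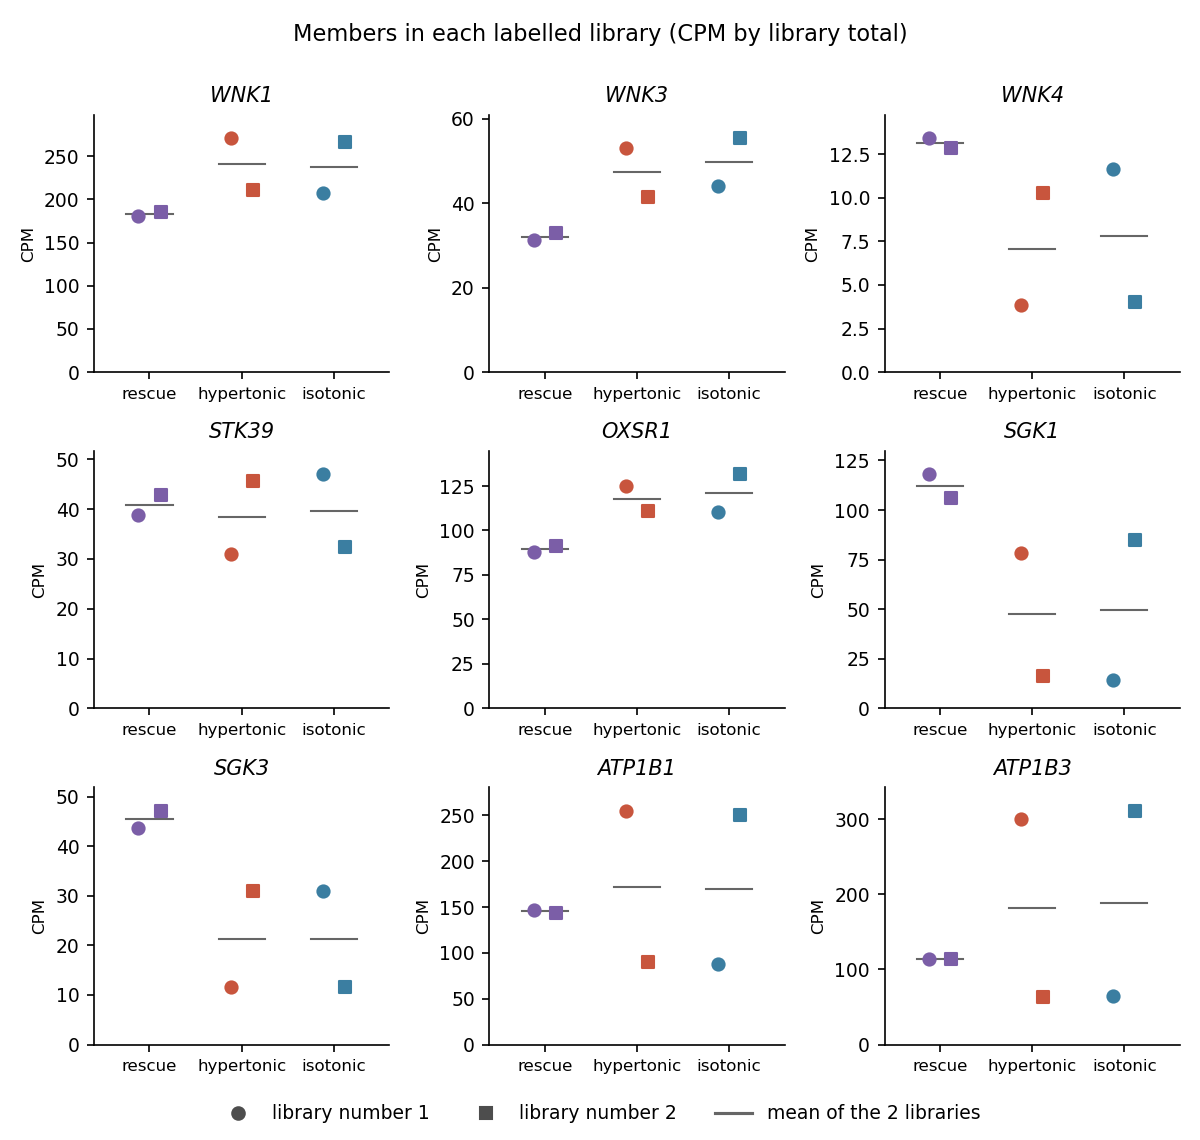
CPM by library total (vertical axes, from 0) of each member in the rescue, hypertonic and isotonic libraries, with circles for number 1, squares for number 2 and a line at the mean of the 2 libraries. SGK1, ATP1B1 and ATP1B3 are high in hypertonic 1 and isotonic 2 and low in hypertonic 2 and isotonic 1, while WNK4 and SGK3 show the opposite order.

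WNK1, on chromosome 12 from 752593 to 911452 (GRCh38, plus strand), is the broadly expressed kinase of the family. It stood at 180.7 and 185.0 CPM in rescue 1 and 2, 270.8 and 210.8 CPM in hypertonic 1 and 2, and 207.9 and 267.0 CPM in isotonic 1 and 2. Both rescue libraries were below the other 4, and hypertonic and isotonic overlapped. WNK3, on chromosome X from 54192823 to 54358642 (minus strand), which activates the sodium-coupled cotransporters when expressed in frog oocytes, was at 31.3 and 32.9 CPM in rescue, 53.1 and 41.5 CPM in hypertonic and 44.0 and 55.3 CPM in isotonic libraries. Like WNK1, it was lowest in rescue and was higher in hypertonic 1 and isotonic 2 than in hypertonic 2 and isotonic 1. WNK4, on chromosome 17 from 42780678 to 42796936 (plus strand), a kinase studied mainly in the distal nephron and mutated in an inherited hypertension with high potassium, was at 13.4 and 12.9 CPM in rescue, 3.87 and 10.3 CPM in hypertonic and 11.6 and 4.00 CPM in isotonic libraries. WNK4 was thus low in the 2 libraries in which WNK1 and WNK3 were high. The count ratio of WNK1 to WNK4 was 13.5 and 14.4 in rescue, 70.1 and 20.5 in hypertonic and 17.8 and 66.7 in isotonic libraries, whereas that of WNK1 to WNK3 stayed between 4.73 and 5.77 in all 6. The WNK4 row overlaps the opposite-strand gene COA3 over 1790 bases. COA3 was at 11.3 and 9.93 CPM in rescue, 14.1 and 17.2 CPM in hypertonic and 17.8 and 14.1 CPM in isotonic libraries, so reads of the pair may be mixed.

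STK39 and OXSR1 encode the related kinases SPAK and OSR1, through which WNK kinases reach the cotransporters. STK39, on chromosome 2 from 167954020 to 168248141 (minus strand), was at 38.9 and 42.8 CPM in rescue, 31.0 and 45.7 CPM in hypertonic and 46.9 and 32.4 CPM in isotonic libraries. OXSR1, on chromosome 3 from 38165089 to 38255488 (plus strand), was at 87.7 and 91.2 CPM in rescue, 125.1 and 110.8 CPM in hypertonic and 110.3 and 131.5 CPM in isotonic libraries. The pair therefore ran in opposite orders, with OXSR1 highest and STK39 lowest in hypertonic 1 and isotonic 2. The count ratio of OXSR1 to STK39 was 2.25 and 2.13 in rescue, 4.04 and 2.43 in hypertonic and 2.35 and 4.06 in isotonic libraries. Of the pair, only OXSR1 had both rescue libraries below the other 4, by library total and with TMM scaling alike.

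SGK1, on chromosome 6 from 134169246 to 134318112 (minus strand), phosphorylates the ubiquitin ligase NEDD4L and so keeps sodium channels at the cell surface. It reached 118.0 and 105.99 CPM in rescue, 78.4 and 16.4 CPM in hypertonic and 14.5 and 84.8 CPM in isotonic libraries. Rescue stood highest by library total, but on TMM-scaled values (103.3 and 91.9 CPM in rescue, 88.6 CPM in hypertonic 1, 95.6 CPM in isotonic 2) the groups overlapped. SGK3, on chromosome 8 from 66667596 to 66862022 (plus strand), a relative held at endosomes by a lipid-binding domain, was at 43.7 and 47.2 CPM in rescue, 11.6 and 31.1 CPM in hypertonic and 30.9 and 11.5 CPM in isotonic libraries. Both rescue libraries were above the other 4 on either scaling. The count ratio of SGK1 to SGK3 was 2.70 and 2.25 in rescue, 6.78 and 0.530 in hypertonic and 0.470 and 7.37 in isotonic libraries. The gene C8orf44, on the same strand, overlaps SGK3 over 17950 bases. C8orf44 had 29.2 and 30.3 CPM in rescue, 4.95 and 14.1 CPM in hypertonic and 14.2 and 4.59 CPM in isotonic libraries, high and low in the same libraries as SGK3, so the SGK3 value is uncertain.

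ATP1B1 and ATP1B3 encode beta subunits of the Na/K-ATPase, which fold the catalytic alpha subunit and take it to the cell surface. ATP1B1, on chromosome 1 from 169105697 to 169132722 (plus strand), was at 146.8 and 144.0 CPM in rescue, 255.2 and 89.6 CPM in hypertonic and 87.9 and 250.7 CPM in isotonic libraries. ATP1B3, on chromosome 3 from 141876124 to 141926514 (plus strand), was at 113.9 and 114.3 CPM in rescue, 299.6 and 62.9 CPM in hypertonic and 64.4 and 311.2 CPM in isotonic libraries. In both genes the rescue libraries lay between the 2 levels seen in each of the other groups. ATP1B3 spanned the wider range, and the count ratio of ATP1B3 to ATP1B1 was 0.776 and 0.794 in rescue, 1.17 and 0.702 in hypertonic and 0.733 and 1.24 in isotonic libraries. ATP1B1 overlaps the opposite-strand gene NME7 over 192 bases, and NME7 was at 81.9 and 89.7 CPM in rescue, 144.8 and 131.5 CPM in hypertonic and 132.1 and 158.7 CPM in isotonic libraries, a far narrower range than that of ATP1B1.

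The comparison of hypertonic with isotonic asks what 4 h of hypertonic medium did to transcript levels. For these genes its direction depended on the library number, and this was not particular to them. Across 17388 genes, deviations from the group mean correlated with r = -0.961 between hypertonic and isotonic libraries of the same number. In number 1, SGK1 was 5.39-fold, ATP1B3 4.65-fold and ATP1B1 2.90-fold higher in the library labelled hypertonic, while WNK4 was 3.01-fold and SGK3 2.68-fold lower. In number 2, SGK1 was 5.16-fold, ATP1B3 4.95-fold and ATP1B1 2.80-fold lower in the library labelled hypertonic, while WNK4 was 2.56-fold and SGK3 2.70-fold higher. These 5 of 9 members stood at least 2-fold apart in each number. Each number taken alone, 22.8% of 17388 genes did so in number 1 and 22.7% in number 2. The share of genes that did so in both numbers was not counted. In number 1 the 3 higher members compare with 9.74% of genes higher and the 2 lower members with 13.1% lower, and in number 2 the 2 higher members with 12.5% and the 3 lower members with 10.2%. WNK1, WNK3, OXSR1 and STK39 had ratios under 2-fold, with log2 values of 0.38, 0.27, 0.18 and -0.60 in number 1 and -0.34, -0.42, -0.25 and 0.50 in number 2. By contrast, hypertonic 2 differed from isotonic 1 by 0.18 at most on the log2 scale over the 9 members, hypertonic 1 from isotonic 2 by 0.11 at most and the rescue libraries from each other by 0.15 at most.

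**Figure D2:**
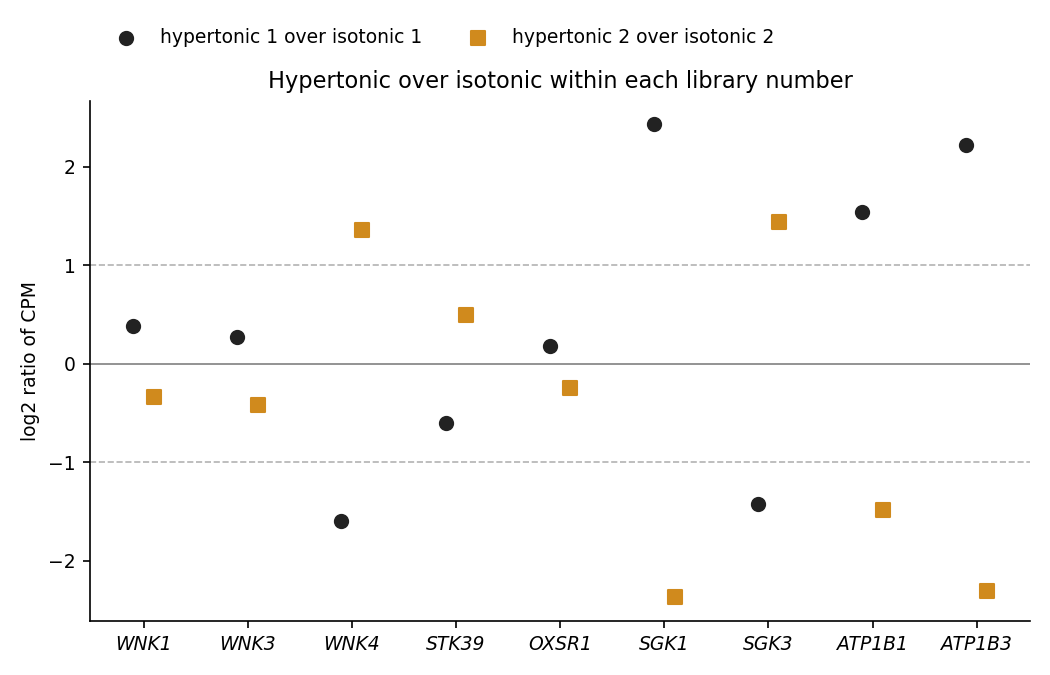
Log2 ratio of CPM (vertical axis) of hypertonic 1 over isotonic 1 (circles) and of hypertonic 2 over isotonic 2 (squares) for the 9 members, with dashed lines at 2-fold. Every member lies on opposite sides of 0 in the 2 numbers, from 2.43 and -2.37 for SGK1 to 0.18 and -0.25 for OXSR1. This is not particular to the members: across 17388 genes, deviations of hypertonic and isotonic libraries of the same number correlated with r = -0.961. The share of all genes on opposite sides was not counted.

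With the libraries grouped as labelled, 0 of 9 members and 0 of 18208 genes (0%) passed the edgeR quasi-likelihood test with Benjamini-Hochberg adjustment over all genes. An unadjusted p under 0.05 was found for 52 genes, DESeq2 called 1 gene and limma voom 0. The members' log2 fold changes lay between -0.14 for WNK4 (SE 0.634) and 0.031 for ATP1B1 (SE 0.768), each with an adjusted p of 1 by edgeR. The 95% interval of the difference ran from -3.10 to 2.97 for SGK1 and from -0.55 to 0.48 for OXSR1, so a change of several fold in SGK1 lay inside it. With isotonic 2 and hypertonic 2 left out, and each lone library assumed to vary like the rescue libraries, all 9 members passed by edgeR, as 64.2% of 18451 genes did. Of the members 6 were higher and 3 lower, where 31.6% of genes were higher and 32.6% lower. SGK1 had a log2 fold change of 2.59 (SE 0.0943, adjusted p = 3.91e-160) and OXSR1, the member nearest to 0, one of 0.34 (SE 0.0826, adjusted p = 9.41e-05). With isotonic 1 and hypertonic 1 left out, the same 6 members were lower and the same 3 higher, where 63.9% of 18440 genes passed, 31% lower and 32.9% higher, and SGK1 had a log2 fold change of -2.51 (SE 0.0934, adjusted p = 2.13e-153). The members called higher in the fit of number 1 were WNK1, WNK3, OXSR1, SGK1, ATP1B1 and ATP1B3, and those called lower were WNK4, STK39 and SGK3.

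The comparison of rescue with isotonic asks how far levels stood from the isotonic state after 4 h back in isotonic medium. WNK1, WNK3 and OXSR1 were lowest in rescue, at 182.8 ± 3.04, 32.1 ± 1.09 and 89.4 ± 2.48 CPM in rescue and 237.5 ± 41.8, 49.7 ± 8.03 and 120.9 ± 15.0 CPM in isotonic libraries (mean ± SD, n = 2 each). None of the 9 members passed the edgeR quasi-likelihood test, beside 23.1% of 18208 genes. That test called 1749 genes higher and 2453 lower with TMM scaling, 2091 and 1404 with upper quartile scaling and 2050 and 1095 with library totals, and 0 with any rescue or isotonic library left out. The nearest members were OXSR1 (log2 fold change -0.74, SE 0.195, edgeR adjusted p = 0.0605), WNK3 (-0.94, SE 0.257, edgeR adjusted p = 0.0664) and WNK1 (-0.68, SE 0.256, edgeR adjusted p = 0.128). DESeq2 called WNK3 (adjusted p = 0.0109) and OXSR1 (adjusted p = 0.013) lower, beside 3761 genes lower and 3280 higher of 18208. Scaling by library totals or upper quartile moved the median of all genes by 0.292 and 0.213 on the log2 scale, and under the 3 other scalings WNK3 stayed between -0.92 and -0.63 and OXSR1 between -0.72 and -0.44. Both rescue libraries lay below the other 4 for WNK1, WNK3 and OXSR1 on either scaling, as they did for 22.8% of genes by library total and 35.1% with TMM scaling.

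SGK1, SGK3 and WNK4 averaged 112.0 ± 8.47, 45.4 ± 2.46 and 13.1 ± 0.377 CPM in rescue and 49.7 ± 49.7, 21.2 ± 13.7 and 7.83 ± 5.41 CPM in isotonic libraries (mean ± SD, n = 2 each). Their log2 fold changes were 0.82 (95% interval -2.23 to 3.88), 0.84 (-0.78 to 2.46) and 0.49 (-1.20 to 2.18), and none passed. By library total all 3 had both rescue libraries above the other 4, as 46.2% of all genes did. With TMM scaling only SGK3 among the 9 did, beside 33.6% of genes. ATP1B1 averaged 145.4 ± 2.00 CPM in rescue and 169.3 ± 115.1 CPM in isotonic libraries, and ATP1B3 114.1 ± 0.270 CPM in rescue and 187.8 ± 174.5 CPM in isotonic libraries (mean ± SD, n = 2 each), again without passing the test. STK39 averaged 40.8 ± 2.77 CPM in rescue and 39.7 ± 10.3 CPM in isotonic libraries, and its log2 fold change was -0.24 with TMM scaling and 0.042 with library totals.

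Against each isotonic library alone, the members gave different answers. Each of these fits takes its spread from the rescue libraries, so its SEs and p-values do not cover the spread between isotonic libraries. Across 17388 genes the SD of the log2 ratio was 0.962 between the isotonic libraries and 0.166 between the rescue libraries. Set against isotonic 1 in the number 1 fit, SGK1 had a log2 fold change of 2.72 (SE 0.0881, edgeR adjusted p = 1.58e-202), ATP1B3 one of 0.60 (SE 0.0753) and ATP1B1 one of 0.50 (SE 0.0745), and 4 members were higher and 4 lower, where 79.1% of 18451 genes passed, 40.5% higher and 38.6% lower. WNK4, at -0.047 (edgeR adjusted p = 0.671), did not pass there. Set against isotonic 2 in the number 2 fit, ATP1B3 had a log2 fold change of -1.82 (SE 0.0693, edgeR adjusted p = 1.62e-147) and ATP1B1 one of -1.16 (SE 0.0699), while SGK3 had 1.61 (SE 0.0954) and WNK4 1.34 (SE 0.120). SGK1, at 0.028 (edgeR adjusted p = 0.724), and STK39, at -0.038 (edgeR adjusted p = 0.669), did not pass, and 2 members were higher and 5 lower, where 80.8% of 18440 genes passed, 40.7% higher and 40.1% lower. WNK1, WNK3 and OXSR1 were lower in rescue in both fits, at -0.41, -0.68 and -0.52 against isotonic 1 and -0.92, -1.16 and -0.93 against isotonic 2. SGK3 was higher in both, at 0.33 and 1.61. Both fits use the same rescue libraries, and the share of all genes with the same direction in both was not counted.

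**Figure D3:**
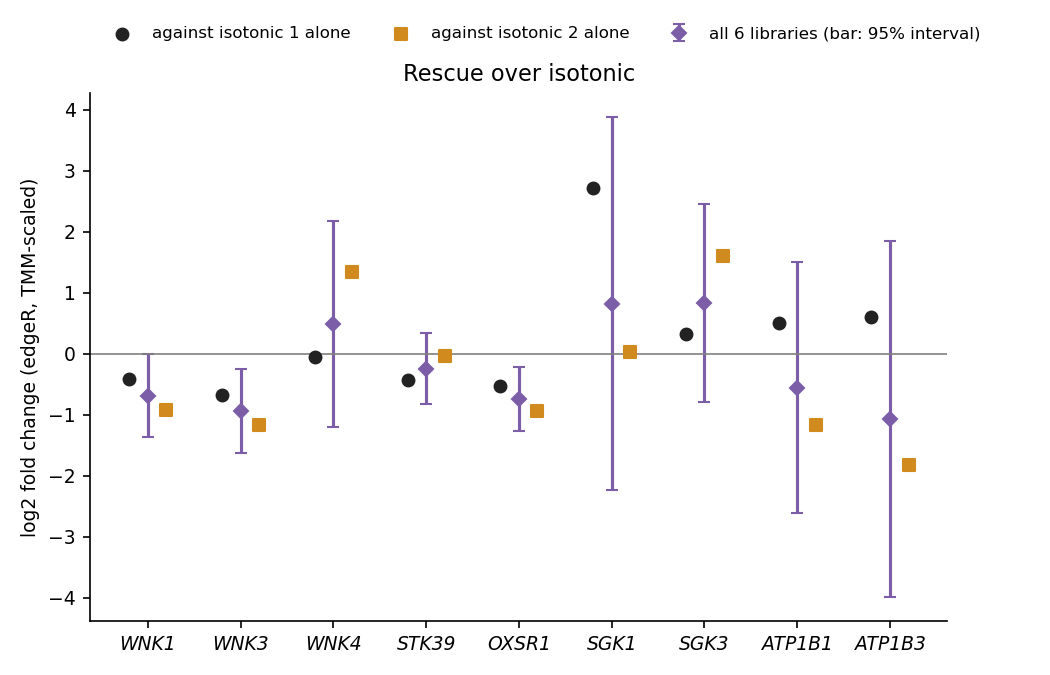
Log2 fold change of rescue over isotonic (vertical axis, edgeR with TMM scaling) for the 9 members, from all 6 libraries (diamonds, with 95% intervals) and from the fits that kept isotonic 1 (circles) or isotonic 2 (squares) alone. The interval of SGK1 runs from -2.23 to 3.88, and WNK1, WNK3 and OXSR1 lie below 0 in all 3 fits, which share the rescue libraries.

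The comparison of rescue with hypertonic shares the rescue libraries with the one above, so its values are set beside the others without counting as separate support. None of the 9 members passed the edgeR test, beside 23.6% of 18208 genes, 9.86% higher and 13.8% lower. The 1796 higher and 2508 lower genes became 2137 and 1448 with upper quartile scaling and 2109 and 1098 with library totals, and 0 with any rescue or hypertonic library left out. The log2 fold changes were -0.71 for WNK1, -0.87 for WNK3, -0.71 for OXSR1, 0.89 for SGK1, 0.82 for SGK3, 0.63 for WNK4, -0.58 for ATP1B1 and -1.02 for ATP1B3, with edgeR adjusted p-values from 0.0658 for OXSR1 to 0.623 for ATP1B1. STK39 was at -0.20 with TMM scaling, and at 0.013 and 0.092 with upper quartile scaling and library totals. Fits against a single hypertonic library take their spread from the rescue libraries, so their SEs and p-values do not cover the spread between hypertonic libraries. Against hypertonic 1 alone ATP1B3 had -1.77 (SE 0.0692) and SGK1 0.14 (SE 0.0738, edgeR adjusted p = 0.0784), and against hypertonic 2 alone ATP1B3 had 0.63 (SE 0.0756) and SGK1 2.54 (SE 0.0867). Against hypertonic 1 alone 2 members were higher and 5 lower, where 81.4% of genes passed, 41% higher and 40.5% lower, and against hypertonic 2 alone 4 were higher and 4 lower, where 79.1% passed, 40.5% higher and 38.6% lower.

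Other genes of the same pathways were taken from 4 lists chosen by function. In hypertonic against isotonic, 0 of 12 WNK regulators and 0 of 9 genes of the SLC12 family (cation chloride cotransporters) passed. Of the other lists, 0 of 18 SGK regulators and targets and 0 of 12 other pump subunits passed. The 9 SLC12 genes are called cotransporters below by family, and what each carries was not tested. Within number 1 the 2-fold counts were 2 higher and 1 lower of 12 WNK regulators, 0 and 1 of 8 cotransporters, 4 and 1 of 18 SGK genes and 5 and 0 of 11 pump subunits with at least 100 counts, beside 9.74% of all genes higher and 13.1% lower. Their median log2 ratios were 0.199, -0.134, 0.0829 and -0.0012, against -0.164 over all genes and 0.27 over the 9 members. In number 2 the counts, in the same order of lists, were 1 higher and 2 lower, 0 and 1, 1 and 5, and 1 and 5, beside 12.5% of all genes higher and 10.2% lower. The medians there were -0.321, 0.155, -0.124 and 0.0895, against 0.154 over all genes and -0.341 over the 9 members. The SGK1 target NEDD4L, which marks sodium channels for removal, was at 388.4 and 183.7 CPM in hypertonic 1 and 2 and at 188.8 and 401.8 CPM in isotonic 1 and 2. RICTOR, a subunit of the kinase complex mTORC2 that activates SGK1, was at 273.3 and 95.5 CPM in hypertonic and 93.1 and 285.0 CPM in isotonic libraries, and its row overlaps OSMR on the opposite strand over 7678 bases. NDRG1, an SGK1 substrate, was at 250.5 and 58.8 CPM in hypertonic and 59.5 and 248.8 CPM in isotonic libraries. Within these 4 libraries all 3 were high where SGK1 was high, but they were named for being at least 2-fold apart in number 1. Of the same list, MTOR and MAPKAP1 ran the other way. MTOR was at 102.8 and 146.2 CPM in hypertonic and 148.8 and 100.8 CPM in isotonic libraries. MAPKAP1 was at 60.6 and 105.2 CPM in hypertonic and 102.5 and 57.8 CPM in isotonic libraries. In the rescue libraries NDRG1, at 503.6 and 478.7 CPM, was above all 4. By library total NEDD4L (221.3 and 217.8 CPM) and RICTOR (108.5 and 116.4 CPM) lay between their levels in the 4. TMM factors were 1.14 and 1.15 in rescue, 0.980 in hypertonic 2 and 0.986 in isotonic 1. The order of NEDD4L and RICTOR against their lower levels therefore depends on the scaling.

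Among the pump genes, FXYD2, the gamma subunit known from kidney, was at 13.2 and 0.232 CPM in hypertonic and 0.152 and 11.2 CPM in isotonic libraries, high in the same libraries as ATP1B1 and ATP1B3. The FXYD2 row overlaps other rows on the same strand, so its value is uncertain. TSC22D2, of a protein family that binds partners of the WNK pathway, was at 353.1 and 92.7 CPM in hypertonic and 89.8 and 367.6 CPM in isotonic libraries, and TSC22D4 at 33.7 and 15.1 CPM in hypertonic and 14.7 and 33.0 CPM in isotonic libraries. NRBP2, a pseudokinase, and SLC12A4, a potassium chloride exporter, ran the other way, NRBP2 at 8.92 and 19.4 CPM and SLC12A4 at 27.6 and 54.5 CPM in hypertonic libraries, against 20.4 and 7.76 CPM and 55.7 and 28.5 CPM in isotonic libraries. The rows of TSC22D4 and SLC12A4 also overlap other rows on the same strand.

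**Figure D4:**
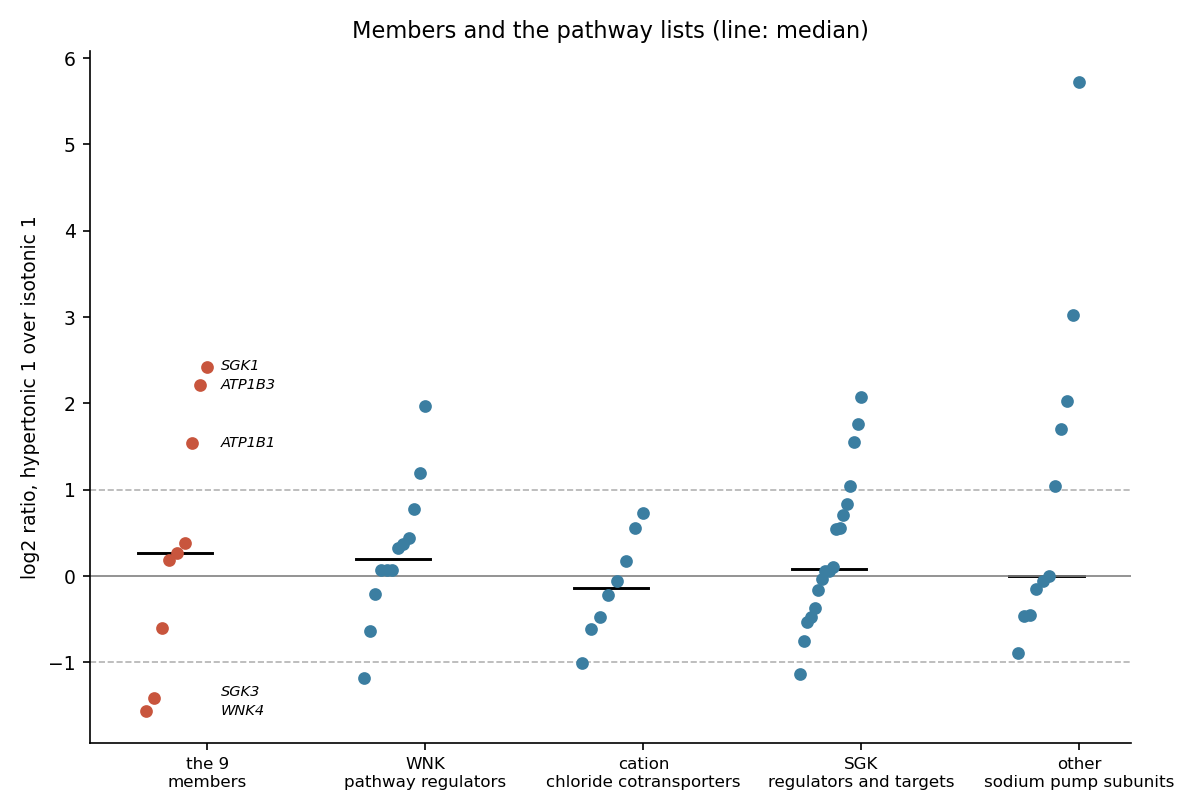
Log2 ratio of hypertonic 1 over isotonic 1 (vertical axis, CPM plus 0.1) for the 9 members and the genes of the 4 lists with at least 100 summed counts, each a point (names are given for members past 2-fold), with a line at the median and dashed lines at 2-fold. Each point is 1 library over 1 library, the medians run from -0.134 (cotransporters) to 0.27 (members), and 5 of the 9 members lie past the 2-fold lines.

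In rescue against isotonic, 2 of 12 WNK regulators were higher and 1 lower, 1 of 9 cotransporters was higher, 2 of 18 SGK genes were higher and 2 lower, and 3 of 12 other pump subunits were higher, beside 9.61% of all genes higher and 13.5% lower. Median log2 fold changes of the lists were -0.16, 0.17, -0.21 and 0.41, against -0.02 over all genes and -0.55 over the 9 members. SGK2, the third SGK kinase, was at 14.3 and 15.7 CPM in rescue, 0.819 and 0.464 CPM in hypertonic and 0.522 and 1.22 CPM in isotonic libraries, 13.8-fold higher in rescue than in isotonic (log2 fold change 3.78, edgeR adjusted p = 0.0227). Against a single isotonic library its log2 fold change ran from 3.25 to 4.62. The SGK2 row overlaps another row on the same strand over 10531 bases. TSC22D3, a glucocorticoid-induced member of the TSC22 family, was at 13.1 and 13.3 CPM in rescue, 2.27 and 2.12 CPM in hypertonic and 2.16 and 2.94 CPM in isotonic libraries (edgeR adjusted p = 0.0149), and TSC22D1 was 2.14-fold higher (edgeR adjusted p = 0.017). SLC12A8 was at 30.1 and 30.4 CPM in rescue, 10.5 and 10.3 CPM in hypertonic and 10.9 and 10.5 CPM in isotonic libraries (edgeR adjusted p = 0.0127). For SGK2, TSC22D3 and SLC12A8 both rescue libraries were above all 4 others by library total, as they were for 46.2% of all genes. These genes were named because they passed in rescue against isotonic, so that order is no separate result. TSC22D3 overlaps NCBP2L on the opposite strand over 2444 bases. NRBP1 was 1.59-fold, NEDD4 1.94-fold and PDPK1, the kinase that phosphorylates the activation loop of SGK1, 1.64-fold lower (edgeR adjusted p = 0.0291, 0.0292 and 0.0396), and each lost its call under at least 1 other scaling, with adjusted p-values up to 0.0735, 0.140 and 0.0911. All 7 kept their direction under the 3 other scalings and in both number fits, which share the rescue libraries. Against hypertonic 2 cotransporters and 2 pump subunits were higher, and the other counts were as against isotonic.

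The genes with the most similar profiles were found by the root mean square difference of centred log2 values over the 6 libraries, searching 11570 genes that averaged 10 CPM or more. For SGK1 they were PCDH11X (difference 0.0726), RGL1 (0.0926) and KITLG (0.122). RGL1 was at 106.1 and 110.4 CPM in rescue, 86.6 and 16.3 CPM in hypertonic and 14.9 and 89.6 CPM in isotonic libraries. For ATP1B3 they were USP53 (0.0423), UBALD1 (0.0529) and RNF152 (0.0777), and for ATP1B1 ETV5 (0.0323), RHOBTB2 (0.0429) and PRX (0.0435). TBCK was nearest to SGK3 (0.0153), MED9 to WNK4 (0.0444), MBD6 to WNK1 (0.0143), CNOT6 to WNK3 (0.0231), SSBP1 to STK39 (0.0120) and ATP7A to OXSR1 (0.0176). The 6 values of each profile come from the same libraries, which fall into 3 sets of 2, so small differences are common and carry no test.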

How the data were processed

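Total RNA of 6 libraries was sequenced after removal of ribosomal RNA, and library preparation included uridine digestion, per the labels' protocols. Raw counts for 19940 gene rows were deposited by the authors, in 1 table per library. Per the submitters' processing notes, bcl2fastq, TopHat2, Bowtie2 and bedtools were used with GRCh38 (hg38). No version, annotation or strand setting is named in the sources used here, so overlapping rows may share reads. No member had its name on more than 1 row.

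CPM used library totals, from 90196278 to 105991428 counts, and ratios over many genes added 0.1 CPM. Tests used all 6 libraries in 1 edgeR 4.0.16 quasi-likelihood fit (1 coefficient for each group, filterByExpr, TMM), with two-sided Benjamini-Hochberg adjusted p-values over 18208 genes and a threshold of 0.05. The common dispersion was 0.148, with 3 residual degrees of freedom. The fit was tested on simulated data, where at the spread found here it missed most of the changes put in. DESeq2 1.42.0, limma 3.58.1, other scalings, no filter, the compared groups alone, a replicate block, single libraries left out and the fits of number 1 and number 2 were alternatives.

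Replicate numbers did not pair libraries: deviations from the group mean correlated with r = -0.961 between hypertonic and isotonic libraries of the same number, across 17388 genes. Named genes were all 9 members, up to 4 genes per list and comparison that passed and averaged 5 CPM or more, and up to 3 per list at least 2-fold apart in number 1. The 3 nearest profiles were searched per member. Some genes that this rule names are not reported here. The members and lists were chosen with earlier results of these data known, so counts of members are descriptions. Coordinates are from GENCODE release 29 and promoter windows from RefSeq.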

Additional observations from a re-analysis of the deposited data

How the results depend on the processing

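Leaving out 1 library, or the isotonic and hypertonic libraries of 1 number, gave from 0 to 11841 calls over all genes and from 0 to 9 members in hypertonic against isotonic, 0 to 14898 and 0 to 8 in rescue against isotonic, and 0 to 15027 and 0 to 8 in rescue against hypertonic. Every count above 0 in hypertonic against isotonic came from the number fits. The log2 fold changes then ran, in hypertonic against isotonic, from -0.48 to 0.54 for WNK1, -0.56 to 0.43 for WNK3, -1.43 to 1.22 for WNK4, -0.44 to 0.36 for STK39, -0.39 to 0.34 for OXSR1, -2.51 to 2.59 for SGK1, -1.26 to 1.29 for SGK3, -1.63 to 1.69 for ATP1B1, -2.45 to 2.37 for ATP1B3. Members whose sign turned were, in rescue against isotonic, from -0.0481 to 1.34 for WNK4, -1.16 to 0.50 for ATP1B1, -1.82 to 0.60 for ATP1B3, and in rescue against hypertonic, from -0.39 to 0.0198 for STK39, -1.19 to 0.47 for ATP1B1, -1.77 to 0.63 for ATP1B3. The fits of a single number take the spread from the rescue libraries alone.

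Replicate numbers did not pair the libraries. With the replicate block 0 genes passed in every comparison, and SGK3 stood at -0.0025 in hypertonic against isotonic. With the crossed pairs as a block (hypertonic 2 with isotonic 1, hypertonic 1 with isotonic 2), added after the data were seen, 21 genes passed in hypertonic against isotonic. Of 18208 genes, DESeq2 called 1 in hypertonic against isotonic, 7041 in rescue against isotonic and 7105 in rescue against hypertonic. It called 2 members in each rescue comparison. By limma voom SGK1 stood at 0.089 and SGK3 at -0.0081 in hypertonic against isotonic. STK39 stood at 0.042 with library totals in rescue against isotonic, and at 0.013 with upper quartile scaling and 0.092 with library totals in rescue against hypertonic. The cause was not tested. RLE scaling, no low-count filter and the compared groups alone kept each count of genes within 1.5 times and called no member. TMM-scaled CPM left the same number of members, 5, at least 2-fold apart in both numbers. The smallest count of any member was 361, and the effect of depth was not tested.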
